A study of Mus musculus with 4 samples.

Results

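The peaks described here were called for the transcription factor MIZ-1 in 1 library of wild-type B cells. Their summits lie in AT-rich DNA away from promoters. A peak was taken when less than 40% of the bases in its summit window, which ran from 100 bp before to 100 bp after the summit, were G or C. It also had to lie away from its nearest annotated transcript start, which it neither covered nor approached to less than 2000 bp upstream or 1000 bp downstream. The MIZ-1WT list held 34209 peaks, of which 25281 were not at a promoter. Among these, 3624 peaks were AT-rich, which was 14.3% of the non-promoter peaks (95% interval 13.9 to 14.8) and 10.6% of the whole list. The same rule applied to the 78357 peaks of MIZ-1DPOZ took 1644 of 61535 non-promoter peaks, or 2.67% (2.55 to 2.80), which was 2.1% of that list. The rule used base composition and position only, so that the strength of a peak and its overlap with the other list did not enter the choice. Repeats were not part of the rule either, but a limit on GC content favours some repeats over others.

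ChIP-seq, in which DNA bound by a protein is enriched with an antibody and then sequenced, was carried out on B220+ splenocytes, which are B lineage cells, with the Miz-1 antibody H-190. The cells came from mice of 40 to 70 days on a C57BL/6 background, which were either wild type (MIZ-1WT, with no alleles given beyond the genotype) or carried MB1-cre and Miz-1floxedPOZ (MIZ-1DPOZ). MB1-cre is active in B lineage cells, where it removes the POZ domain from MIZ-1 and leaves a shorter protein, and the share of cells that kept the intact gene is not given in the sources used here. Each genotype had 1 ChIP library and 1 input library without antibody, and the study's methods give n = 1 for the sequenced ChIP without saying whether cells of several animals were pooled. All differences between MIZ-1WT and MIZ-1DPOZ are therefore differences between 2 libraries with no replicate check, and no test between genotypes was possible. Intervals are 95% intervals and cover counting error only.

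MIZ-1 (gene Zbtb17) is a zinc finger protein that binds DNA at its target promoters and forms pairs with itself through its POZ domain. Promoters bound by such factors are often rich in G and C, whereas most AT-rich DNA of the mouse genome lies between genes, in introns and in repeats. Such repeats include runs of short tandem units, LINE-1 elements, which copy themselves through RNA and carry a pair of long reading frames, and the satellites of the centromeres, which are long arrays of a single unit.

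The members fell into a few kinds of sequence, and 1 or more examples of each are printed because the sequence sets these peaks apart. All are from the plus strand of mm10 unless stated, 5′ to 3′. The first examples are summit windows that hold a perfect tandem run, with the run in capitals. A unit stands for both strands and every starting base, so that the AAAG run is read as CTTT and the AAG run as TTC. The AAAG run lies in intergenic DNA at chr16:3350091-3350291 and the summit pileup there, which is the number of fragments over the summit, was 70. The AAG run lies in intergenic DNA at chrY:11858068-11858268 with a pileup of 132, and the AGAT run in intergenic DNA at chr19:60410488-60410688 with a pileup of 25.
AAAG run: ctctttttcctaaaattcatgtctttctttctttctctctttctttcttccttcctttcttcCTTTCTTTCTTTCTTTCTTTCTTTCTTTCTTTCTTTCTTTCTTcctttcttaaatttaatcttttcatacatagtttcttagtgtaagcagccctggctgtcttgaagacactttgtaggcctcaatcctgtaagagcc
AAG run: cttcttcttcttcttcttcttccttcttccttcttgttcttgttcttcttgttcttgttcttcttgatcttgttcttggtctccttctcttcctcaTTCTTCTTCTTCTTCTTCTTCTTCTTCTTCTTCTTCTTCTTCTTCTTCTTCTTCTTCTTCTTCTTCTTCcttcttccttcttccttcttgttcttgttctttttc
AGAT run: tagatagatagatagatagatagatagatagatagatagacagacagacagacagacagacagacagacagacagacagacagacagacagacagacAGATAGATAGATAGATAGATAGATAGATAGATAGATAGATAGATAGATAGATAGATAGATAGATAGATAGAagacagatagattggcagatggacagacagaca

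The next examples are 3 pieces of a single interspersed repeat, each in intergenic DNA, with a 25-base sequence in capitals that was shared by many members. They lie at chr1:77941051-77941155, at chr6:101587669-101587773 and, read on the minus strand, at chr15:60792870-60792974. Summit pileups were 16, 19 and 15.
interspersed repeat, first piece: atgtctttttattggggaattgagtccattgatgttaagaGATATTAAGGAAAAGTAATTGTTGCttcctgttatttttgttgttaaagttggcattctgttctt
interspersed repeat, second piece: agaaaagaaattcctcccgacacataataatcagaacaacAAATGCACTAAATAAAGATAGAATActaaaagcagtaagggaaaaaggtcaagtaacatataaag
interspersed repeat, last piece: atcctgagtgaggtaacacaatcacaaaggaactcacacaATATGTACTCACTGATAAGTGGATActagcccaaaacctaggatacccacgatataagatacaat

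The last examples are summit windows without a tandem run that counted as single-copy. Of 5 stretches of 50 bases near each summit, the median count in mm10 was 1. All of these windows share shorter sequences with the long-unit repeats described below, so they are not shown to be unique. The 21 bases around the summit are in capitals. The first is in an intron of Chl1, which encodes a neural cell adhesion molecule, at chr6:103649081-103649281 with a pileup of 261. The second is in an intron of the lincRNA gene Gm33838 at chr9:35305280-35305480 with a pileup of 296. The third is intergenic at chr7:26779854-26780054, where Cyp2b19, a cytochrome P450 gene, was the nearest gene. Its pileup was 21 and no MIZ-1DPOZ peak overlapped it.
single-copy, Chl1 intron: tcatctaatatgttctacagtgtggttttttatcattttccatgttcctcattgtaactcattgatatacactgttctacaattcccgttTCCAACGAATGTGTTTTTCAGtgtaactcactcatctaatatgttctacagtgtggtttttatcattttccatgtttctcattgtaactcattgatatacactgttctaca
single-copy, Gm33838 intron: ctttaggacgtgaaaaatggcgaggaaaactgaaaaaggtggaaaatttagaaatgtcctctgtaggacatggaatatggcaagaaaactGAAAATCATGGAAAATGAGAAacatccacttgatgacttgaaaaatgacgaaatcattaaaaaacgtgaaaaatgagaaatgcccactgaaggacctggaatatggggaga
single-copy, MIZ-1WT only: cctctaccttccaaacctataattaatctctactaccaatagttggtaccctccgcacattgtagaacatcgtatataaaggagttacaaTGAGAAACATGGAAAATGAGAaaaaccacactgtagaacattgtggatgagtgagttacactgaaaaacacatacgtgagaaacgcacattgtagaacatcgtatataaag

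AT-rich summits took a larger share of the MIZ-1WT list than of the MIZ-1DPOZ list, both at promoters and away from them. The difference was 11.7 percentage points (11.2 to 12.1) among non-promoter peaks. Among promoter peaks, a window under 40% GC was held by 1.52% of 8928 (1.29 to 1.80) with wild-type MIZ-1 and by 0.428% of 16822 (0.340 to 0.539) with the truncated protein. In equally long lists, made of the strongest MIZ-1DPOZ peaks, the shares of non-promoter peaks were 14.3% and 1.49%. The plot of GC content shows 3 humps in MIZ-1WT, at 40 to 42%, 48 to 50% and 64 to 66% GC with 5.23%, 8.11% and 9.81% of the peaks. In MIZ-1DPOZ the bin at 40 to 42% held 1.65% of the peaks and did not stand out.

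**Figure D1:**
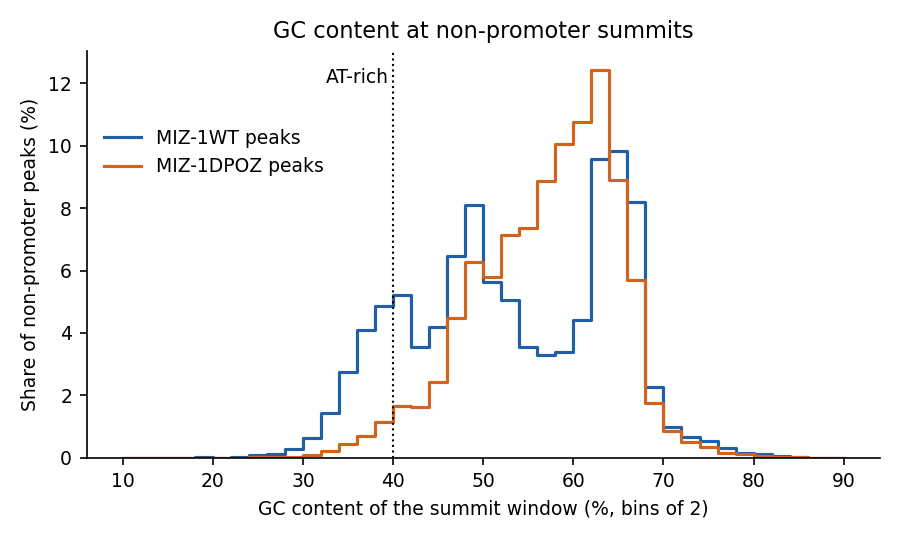
GC content of the summit window (x axis, percent, bins of 2) against the share of non-promoter peaks (y axis, percent) for the 25281 MIZ-1WT and the 61535 MIZ-1DPOZ peaks. The dotted line is the limit of 40%, below which 14.3% of the MIZ-1WT and 2.67% of the MIZ-1DPOZ peaks lay.

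The limit of 40% thus crosses the first hump, and members and their nearest neighbours in GC content were compared as a description. At 80 G or C bases in the window (39.8% GC) there were 340 MIZ-1WT peaks with a median pileup of 8, of which 51 (15%) overlapped a MIZ-1DPOZ peak. At 81 such bases (40.3% GC) there were 336 peaks with the same median pileup, of which 33 (9.82%) overlapped. Strength was thus the same on both sides of the limit.

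The members were narrower than the other non-promoter MIZ-1WT peaks and lay farther from transcript starts. Their median width was 163 bp, against 173 bp. The median pileup was 9 in both sets, and 67.3% of the members and 55.7% of the other peaks had a pileup under 10. The median distance to the nearest transcript start was 26978 bp (25674 to 28522), against 21814 bp (21334 to 22217). Of the members, 69.1% (67.6 to 70.6) were intergenic, 30.5% (29.1 to 32.1) intronic, and 12 of 3624 lay in an exon. The intergenic share was 13.5 points (11.9 to 15.2) above that of the other non-promoter peaks. The MIZ-1DPOZ peaks chosen in the same way had a median distance of 26479 bp and an intergenic share of 67.3%, so that neither was particular to MIZ-1WT.

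Low GC content at the summit is set by the rule, and a rise of GC content outside the window follows from the same choice. The mean GC content of the members was 36.2% within 50 bp of the summit and 40.3% at 900 bp or more, where the other non-promoter MIZ-1WT peaks averaged 43.1%. In 33.3% of the members both windows 2000 bp to either side were under 40% GC, against 23.3% of the other peaks (difference 10.0 points, 8.40 to 11.7). Of the members, 51.8% (50.2 to 53.5) had no CpG in the window, the dinucleotide at which mammalian DNA is methylated. Among windows under 40% GC that lay 2000 bp away it was 40.6%, and among the MIZ-1DPOZ peaks chosen in the same way 48.8% (46.4 to 51.2).

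**Figure D2:**
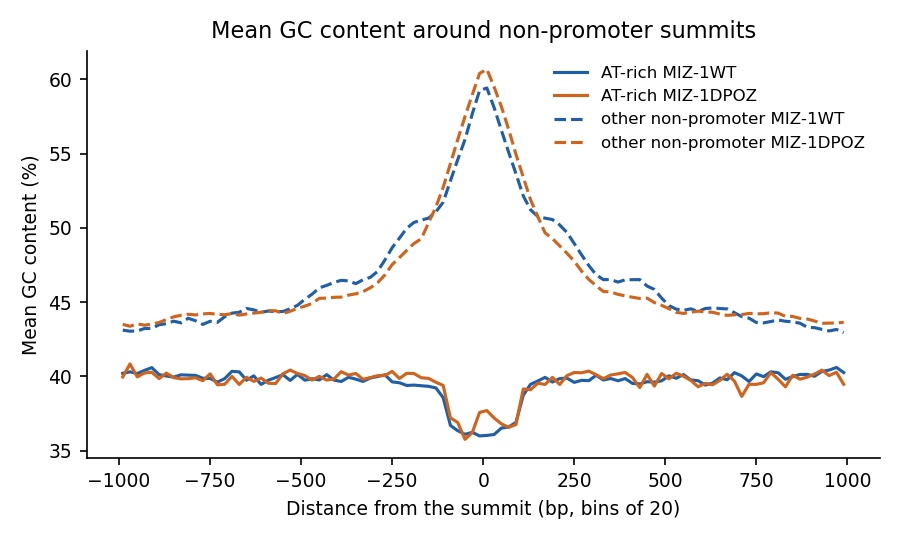
Mean GC content (y axis, percent) against the distance from the summit (x axis, bp, bins of 20) for AT-rich peaks (solid lines) and other non-promoter peaks (dashed lines) of both lists. AT-rich MIZ-1WT peaks averaged 36.2% within 50 bp of the summit and 40.3% at 900 bp or more, whereas the other peaks rose to 59.4% at the summit. The dip at AT-rich summits follows from the rule.

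Few members were found again with the truncated protein. Of the 3624 members, 467 (12.9%, 11.8 to 14) overlapped a MIZ-1DPOZ peak by at least 1 bp, while 53.7% of all MIZ-1WT peaks and 47.4% of the non-promoter ones did. Of the other non-promoter MIZ-1WT peaks 53.2% (52.5 to 53.9) overlapped, so that the members differed from them by -40.3 points (-41.6 to -39.0). The MIZ-1DPOZ peaks chosen in the same way went the other way as a set, but not in every kind of sequence given below. Of these, 365 of 1644 (22.2%, 20.3 to 24.3) overlapped a MIZ-1WT peak, against 22.1% of all MIZ-1DPOZ peaks and 18.1% of the non-promoter ones, and their share was 4.24 points (2.28 to 6.34) above that of the other non-promoter MIZ-1DPOZ peaks. The MIZ-1DPOZ list is longer by far, so the shares of the 2 lists are not on the same scale.

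Across classes of GC content, the overlap of MIZ-1WT peaks was flat in AT-rich DNA, climbed with GC up to 70% and was lower again above that. It was 12% (7.61 to 18.3) under 30% GC, 15.2% (12.9 to 17.8) from 30 to 35% and 12.2% (11.0 to 13.5) from 35 to 40%. These 3 intervals meet one another. From 40 to 45% GC the share was 15.7% (14.4 to 17.1), and it reached 86.2% (85.4 to 86.9) from 60 to 70% and 78.9% (75.8 to 81.7) from 70%. MIZ-1DPOZ peaks had their lowest overlap, 8.08% (7.64 to 8.54), from 55 to 60% GC. They reached 37.2% (31.9 to 42.8) from 30 to 35% and, at the other end, 42.7% (40 to 45.4) from 70%.

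**Figure D3:**
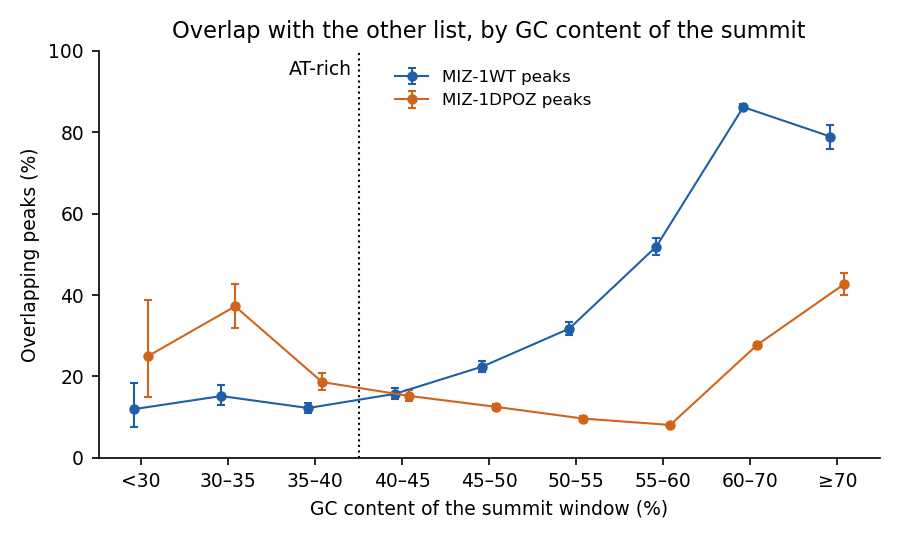
Share of non-promoter peaks that overlap a peak of the other list (y axis, percent, with 95% Wilson intervals) by GC content of the summit window (x axis, percent). The MIZ-1WT points left of the dotted line at 40% lie between 12% and 15.2%, and the highest MIZ-1WT point is 86.2%.

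Overlap rose with the strength of a member. It was 8.53% (7.49 to 9.71) among the 2438 members with a pileup of 5 to 9, 14% (12 to 16.3) of 977 with 10 to 14, and 41.7% (33.9 to 50.0) of 139 with 15 to 24. Of the 43 members with a pileup of 25 to 49, 37 overlapped, and so did all 27 members with a pileup of 50 or more. At the same pileup the other non-promoter MIZ-1WT peaks overlapped more often in the weaker classes, with 36.3% (35.4 to 37.2) at 5 to 9, 66.6% (65.4 to 67.7) at 10 to 14 and 94.5% (93.5 to 95.4) at 15 to 24. From a pileup of 25 the intervals of the sets met. Members that overlapped had a median pileup of 10, against 8 for those that did not, and the strongest member without an overlap had a pileup of 45.

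**Figure D4:**
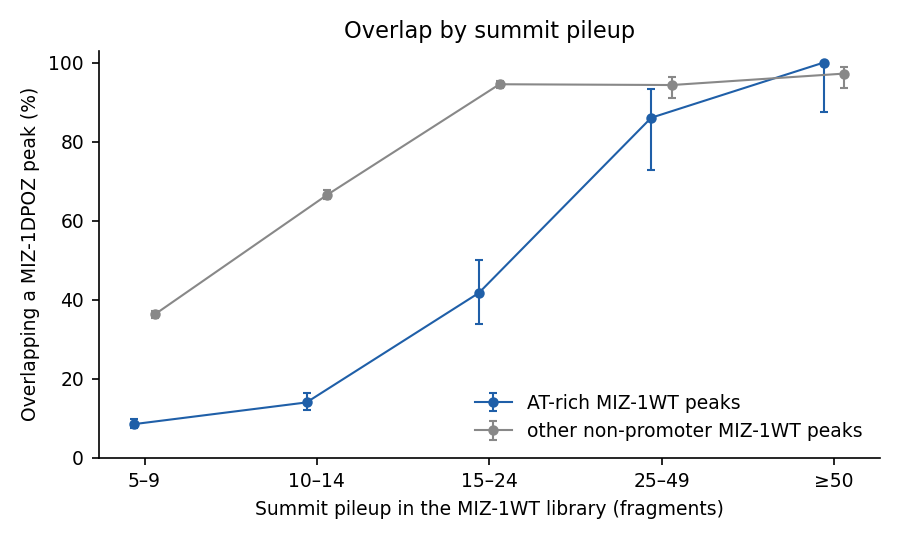
Share of MIZ-1WT peaks that overlap a MIZ-1DPOZ peak (y axis, percent, with 95% Wilson intervals) by summit pileup (x axis, fragments), for AT-rich and other non-promoter peaks. AT-rich peaks with a pileup of 5 to 9 overlapped in 8.53% of cases and other peaks in 36.3%, and from a pileup of 25 both sets were at 86.0% or more.

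At the overlapping members the signal was lower in MIZ-1DPOZ. Pileups were scaled by an inferred depth ratio of 1.34 for MIZ-1DPOZ over MIZ-1WT, as read counts were not used. The most frequent background values, 1.348 and 0.86, were each divided by the smallest peak width of the list, 173 and 148 bp. This takes the smallest width as the fragment length. On the log2 scale the scaled pileup of MIZ-1DPOZ over that of MIZ-1WT had a median of -0.23 (-0.27 to -0.13) across the 467 overlapping members, and 309 of them (66.2%) were lower in MIZ-1DPOZ, against 28.9% of all overlapping MIZ-1WT peaks. The other non-promoter peaks that overlapped had a median of 0.79 (0.76 to 0.81). The scaled pileup in MIZ-1DPOZ was at least 2-fold lower at 29 members (6.21%, against 1.23% of all overlapping peaks) and at least 2-fold higher at 6 (1.28%, against 28.8%). With the most frequent background values in place of depth, all medians shifted by -0.23, the members' median was -0.46 and that of the other peaks 0.56, so that the gap of -1.02 between the sets stayed as it was. The values were also split by the pileup in MIZ-1WT, which is the denominator of the ratio, so that this split is a description. The median was -0.47 (-0.63 to -0.39) at the 64 overlapping members with a pileup of 25 or more, of which 57 were lower in MIZ-1DPOZ, and -0.13 (-0.23 to -0.10) at the other 403. Pileups reached at most 296 in MIZ-1WT and 346 in MIZ-1DPOZ. How far these ceilings shifted the ratios of strong members was not tested. Only sites called in both lists enter these ratios, and the 3157 members without an overlapping peak have no measured value in MIZ-1DPOZ.

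The overlapping pairs mostly shared the same stretch of DNA. The MIZ-1DPOZ partner was itself under 40% GC for 313 of 467 members (67%, 62.6 to 71.1), the median GC content of the partners was 37.8%, and 0 partners were at a promoter. Summits of a pair lay a median of 61 bp apart, and 213 pairs were within 50 bp.

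Nearly all members lay in repeats. Over 50% of the window was repeat-masked in 3481 of 3624 members (96.1%, 95.4 to 96.6), against 75.2% (74.6 to 75.8) of the other non-promoter MIZ-1WT peaks. Summits counted as single-copy, judged from 5 stretches of 50 bases near the summit by the median of their counts, made up 20.4% (19.1 to 21.7) of the members and 41.3% (40.6 to 42.0) of the other peaks. Of these 739 members, 557 held a tandem run as defined below. All 5 stretches were found once in only 5.63% of the members. The median member was found 137.5 times. The MIZ-1DPOZ peaks chosen in the same way were close to these values, with 93.4% (92.1 to 94.5) masked and 23.4% (21.4 to 25.5) single-copy. How the study's alignment placed reads from repeats is not given in the sources used here, and whether the pileup of such a peak counts fragments from other copies was not tested.

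Set apart by sequence, the members were of 3 kinds. A perfect run of a unit of 1 to 6 bases, at least 24 bp long, was held by 1462 members (40.3%, 38.8 to 41.9). A further 1980 (54.6%, 53 to 56.3) had no such run but more than 1 copy in the genome, with a median of 1331 copies. The remaining 182 (5.02%, 4.36 to 5.78) had neither, though some of them could be placed on the interspersed repeat described below. Tandem runs were 21.0 points (19.3 to 22.7) more frequent than in the other non-promoter MIZ-1WT peaks, and they were held by 3.77% (3.22 to 4.41) of the windows under 40% GC that lay 2000 bp from a member. They were thus far more frequent at the summits than in AT-rich DNA close to them. The MIZ-1DPOZ peaks chosen in the same way held them more often still (46.7%), with a difference of -6.37 points (-9.26 to -3.48). The multi-copy kind was about as frequent in the other non-promoter MIZ-1WT peaks, with an interval of -0.62 to 2.88 points for the difference.

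The kinds differed in overlap. It was 21.3% (19.3 to 23.5) in members with a tandem run and 6.11% (5.14 to 7.25) in multi-copy members without one, a difference of 15.2 points (12.9 to 17.6). Members with neither overlapped in 34 of 182 cases (18.7%, 13.7 to 25). Within each kind the members overlapped less often than the other non-promoter peaks of that kind, with differences of -16.7 points (-19.2 to -14.1) for tandem runs, -56.2 (-57.5 to -54.8) for multi-copy sequence and -27.4 (-32.5 to -21.0) for single-copy sequence. The scaled ratio at overlapping members was below 0 in every kind, with medians of -0.13 (-0.24 to -0.10), -0.27 (-0.36 to -0.18) and -0.50 (-0.63 to -0.19).

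The tandem runs were made mainly of A and G on 1 strand. Units of A and G alone accounted for 1119 of 1462 runs (76.5%, 74.3 to 78.6), against 78.3% (75.2 to 81) in the MIZ-1DPOZ peaks chosen in the same way. The other non-promoter MIZ-1WT peaks had 41.0%, but the limit on GC content itself favours AAAG and AAG runs over AC and AG runs. The latter were held by 67 and 59 members. The unit AAAG was the most frequent with 544 members, followed by AAG with 367 and AGAT with 145, as in the runs printed above. A stretch of at least 30 purines or 30 pyrimidines in a row was present in 33.4% (31.9 to 35) of the members, 40.6% (38.2 to 43.0) of the AT-rich MIZ-1DPOZ peaks and 10.9% (10.5 to 11.3) of the other MIZ-1WT peaks. Homopolymers of 10 or more bases were found in 3.81% (3.23 to 4.48) of the members and 3.93% (3.68 to 4.20) of the other peaks, with an interval of -0.76 to 0.59 points for the difference. Runs of A of at least 24 bp were held by 59 members (1.63%) and 68 other peaks (0.314%).

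The units behaved differently from each other. AAG runs overlapped a MIZ-1DPOZ peak in 34.1% (29.4 to 39.1) of cases and AAAG runs in 13.2% (10.6 to 16.3), although the median pileup was 9 for both and the runs had median lengths of 79 and 62 bp. AGAT runs lay between, at 22.1% (16.1 to 29.5). This order was not particular to the members. Among the other non-promoter MIZ-1WT peaks it was 42.3% (37.4 to 47.5) for AAG, 25% (10.2 to 49.5) for AGAT and 15.2% (10.4 to 21.8) for AAAG. Among the AT-rich MIZ-1DPOZ peaks AAG led with 270 and AAAG followed with 193, and 30 of the 39 with AGAT runs overlapped a MIZ-1WT peak.

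A small group of 12 members held the unit AACCCT, which is the repeat of the chromosome ends read on 1 strand. As many as 146 of the other non-promoter MIZ-1WT peaks held it too. All 12 members were single-copy, their median pileup was 25.5 with a range of 8 to 68, and 10 overlapped a MIZ-1DPOZ peak. The signal in MIZ-1DPOZ was lower at all 10 of these, with a median log2 ratio of -0.96 and a range of -1.65 to -0.69. The strongest of them lay at chr8:71433002-71433260, in intergenic DNA with Ankle1 as the nearest gene, where the pileup was 68 in MIZ-1WT and 31 in MIZ-1DPOZ.

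Over 50% of the members belonged to 1 interspersed repeat. All 23 of the 25-base sequences that recurred among AT-rich peaks without a tandem run were found together in a single stretch of chromosome 1. This copy, with 1500 bp added on each side, was used as a map. The map is chr1:5429798-5437457, or 7660 bp with the added bases. The ends of the repeat itself were not determined. The whole map is 42.8% GC. Its longest stretches without a stop codon were 761, 393 and 255 codons, all on the strand of the map. The annotation used here names no repeats, so the stretch is not named. Summits of 1993 members (55%, 53.4 to 56.6) could be placed on this map, against 29.8% (29.2 to 30.5) of the other non-promoter MIZ-1WT peaks and 689 (41.9%, 39.5 to 44.3) of the MIZ-1DPOZ peaks chosen in the same way. The share among AT-rich windows away from the peaks was not measured.

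The positions on the repeat differed between the libraries. From 1400 to 2600 bp lay 888 of the 1993 placed members (44.6%, 42.4 to 46.7) but 123 of the 689 placed MIZ-1DPOZ peaks (17.9%, 15.2 to 20.9), a difference of 26.7 points (23.0 to 30.2). From 2600 to 5400 bp lay 31.3% (29.3 to 33.3) and 47.9% (44.2 to 51.6), and beyond 5400 bp 23.5% (21.7 to 25.4) and 33.2% (29.8 to 36.8). Mean GC content was 38.5% in the first of these sections and 37.7% in the second. The first 1000 bp of the map lie within the added bases, before the first of the shared sequences. They are 60.7% GC on average, so the limit on GC content itself kept members out, and no member was placed there. In that section lay 1380 other non-promoter MIZ-1WT peaks, of which 99.3% (98.8 to 99.7) overlapped a MIZ-1DPOZ peak. Overlap among the placed members was 3.27% from 1400 to 2600 bp, 5.94% from 2600 to 5400 bp and 7.68% beyond.

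**Figure D5:**
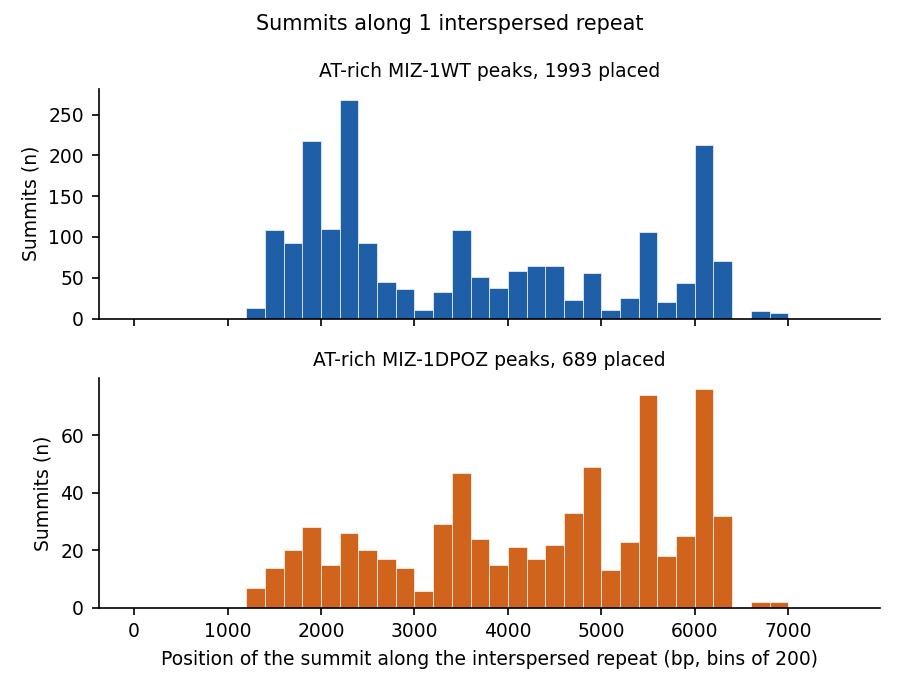
Number of summits (y axis) by position along the interspersed repeat (x axis, bp, bins of 200) for the 1993 AT-rich MIZ-1WT peaks (top) and the 689 AT-rich MIZ-1DPOZ peaks (bottom) placed on it, on y axes of different scale. From 1400 to 2600 bp lay 44.6% of the MIZ-1WT and 17.9% of the MIZ-1DPOZ summits.

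The windows with each shared 25-base sequence were also counted, in sets of which MIZ-1WT was 2.20 times the larger. These counts come from the same peaks as the placed summits and use the same sections, so they are not a separate check. For the 8 sequences from 1400 to 2600 bp, MIZ-1WT had 1.60 to 15.9 times as many windows as MIZ-1DPOZ, with a median of 5.92, and 7 of the 8 were above the ratio of the sets. Those at 1935 and 1936 bp are 1 site read on opposite strands, held by 187 and 191 MIZ-1WT windows. The median and the count of 7 include both. For the 11 from 2600 to 5400 bp the range was 0.70 to 4.22 with a median of 1.98, and 3 were more frequent in MIZ-1DPOZ. For the 4 beyond 5400 bp it was 1.05 to 2.45 with a median of 1.68. The sequence in capitals in the first piece printed above, at 2349 bp, has 13193 copies in the genome and was held by 223 AT-rich MIZ-1WT and 14 AT-rich MIZ-1DPOZ windows, or 169 and 10.6 per 10000 copies. That of the second piece, at 1936 bp, was held by 191 and 27 windows of 14046 copies, and that of the last piece, at 6135 bp, by 159 and 65 of 29263. These were chosen because they recurred in MIZ-1WT windows, while others of the 23 were chosen from MIZ-1DPOZ windows.

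The strongest members lay in yet another type of sequence. Of the 13 members with a pileup over 100, 11 shared at least 20 sequences of 12 bases with 1 of 2 repeats of a long unit, which were recognised after their values were seen. One repeat, present in the printed Gm33838 window, matched itself best there at a shift of 234 bp with 76.1% identity. The other, present in the printed Chl1 and Cyp2b19 windows, matched itself best at a shift of 120 bp, with 97% identity at its clearest site, chr4:64497735-64498145. As background, the units of the major and minor satellites of mouse centromeres have about these lengths. Over all pileups, 11 members held the longer unit and 7 the shorter one, and 15 of these 18 overlapped a MIZ-1DPOZ peak. By the median of the copy counts, 7 members with the longer unit and all 7 with the shorter one counted as single-copy. Copies absent from mm10 do not enter these counts. All 13 members with a pileup over 100 also had a local background, as used by the peak caller, of more than 2 times the most frequent value, which was the case for 6.43% of all members. The part of this background in their pileups was not tested.

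Among single-copy members the largest −log10 q belonged to the Chl1 peak at chr6:103649017-103649376. Its pileup was 261 over a background of 5.59, against 257 over 6.19 in MIZ-1DPOZ, and the depth-scaled MIZ-1DPOZ pileup was 0.734 times that in MIZ-1WT. The Gm33838 peak at chr9:35305164-35305670 had 296 and 346, which were the highest values of the lists and were shared by 15 MIZ-1WT and 12 MIZ-1DPOZ peaks. A ratio of these ceilings is not given. Whether they also shifted the ratio at the Chl1 peak was not tested. The members named here were picked for their strength in MIZ-1WT, so their pileups in MIZ-1DPOZ are a description.

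The other strong single-copy members lay in introns and between genes. The peak at chr12:67059172-67059892 lies in an intron of Mdga2, which encodes a protein at neuronal synapses, with pileups of 158 and 144. The peak at chrX:143482919-143483204 is intergenic, 35387 bp before the start of Pak3, a kinase gene, with 120 and 109. The AAG run printed from chromosome Y had pileups of 132 and 119. Peaks at chr9:24541929-24542231 (148 and 128) and chr4:64497735-64498145 (107 and 83) had a non-coding gene as the nearest. A pair at chr2:98664949-98665231 and chr2:98663712-98664066 had pileups of 285 each, but over backgrounds of 63.2 and 63.3, so that their fold enrichment was 4.46 and 4.45 where the other 8 reached at least 22.6.

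Among multi-copy members the strongest was intergenic at chr12:3109790-3110173, with pileups of 270 and 265 and 16 copies in the genome. The next 4 were in an intron of 2210408I21Rik at chr13:77438820-77439108 (155 and 150), intergenic at chr6:103314516-103314810 (125 and 122), in an intron of D5Ertd579e at chr5:36630397-36630775 (63 and 55) and in an intron of Shroom2, an actin-binding protein gene, at chrX:152728125-152728386 (47 and 39). The last holds an AAAG run inside a window that is purine or pyrimidine throughout.

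Members without a partner in MIZ-1DPOZ were weak in comparison. The strongest single-copy ones lay at chr7:37804461-37804662, an AAG run in intergenic DNA with a pileup of 24, and at the printed Cyp2b19 site with 21. The next 3 had a pileup of 16 each and lay in introns of Ebf1, a transcription factor of the B lineage, at chr11:44935867-44936095, of Ryr2, a calcium channel gene, at chr13:11792473-11792719, and of Cpq, a carboxypeptidase gene, at chr15:33386286-33386446. The Ebf1 and Cpq sites are AAG runs and the Ryr2 site is a run of A. The single-copy AT-rich MIZ-1DPOZ peaks without a MIZ-1WT partner had pileups of 17 to 20 for the 5 strongest, and all 5 held a tandem run. Of these, the peak at chr10:60840628-60840821 lies 9047 bp before the start of Unc5b, a netrin receptor gene.

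Members were counted within genes of the B cell. A member lay within 727 of 21924 protein-coding genes (3.32%, 3.09 to 3.56), whose median length was 17.4 kb. Of 30 genes of the B lineage, with a median length of 36.6 kb, 4 (13.3%, 5.31 to 29.7) had one, namely Bach2 and Ikzf3, which encode transcription factors, Cxcr5, a chemokine receptor gene, and Ebf1. Their pileups were 12, 9, 10 and 16, and 0 of the 4 overlapped a MIZ-1DPOZ peak, where 12.9% of all members did. Of 267 genes of B cell receptor signaling, 4 (1.50%, 0.584 to 3.79) held a member. These 4 were Lpxn, Pdpk1, Rasgrp3 and Vav3, with pileups of 5, 7, 11 and 9. Of the 20 genes that the study names for signaling and actin dynamics, 0 held a member (interval 0 to 16.1%), which takes in the share of all protein-coding genes.

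Members within genes gathered in long genes, in which more sequence is searched. Protein-coding genes with a member had a median length of 183 kb, against 17.4 kb for all protein-coding genes. The most members in 1 gene were 5, in Sugct, Cntn5, Magi2, Dlg2 and the overlapping gene models Gm37388, Gm37013 and Gm42416. Cntn5 and Dlg2 encode an adhesion and a scaffold protein of neurons. Lengths ran from 838 kb (Sugct) to 1973 kb (Dlg2), and these genes held 0 to 2 AT-rich MIZ-1DPOZ peaks each.

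The nearest gene was an olfactory or vomeronasal receptor gene for 95 members (2.62%, 2.15 to 3.19), against 1.59% (1.43 to 1.77) of the other non-promoter peaks, and an immunoglobulin gene segment for 19 (0.524%, 0.336 to 0.817), against 0.166% (0.120 to 0.230). By chromosome, AT-rich peaks made up 39.2% of the 265 non-promoter MIZ-1WT peaks on chromosome Y and 17.3% of those on chromosome X, and 11.0% to 16.5% on the autosomes. In MIZ-1DPOZ the share was highest on chromosome Y too, with 7.20%.

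Binding motifs of B cell factors were searched as exact letters on both strands. The comparison was with 4004 windows of the same length and under 40% GC that lay 2000 bp from a member. The interferon regulatory factor motif GAAANNGAA was found in 15.6% (14.4 to 16.8) of the members and 10.8% (9.87 to 11.8) of these windows. It was held by 26.4% (24.2 to 28.7) of the members with a tandem run, among them 31.8% of the AAAG and 53.5% of the AAAGG runs, and by 8.23% (7.15 to 9.47) of those without one. The latter differed from the windows by -2.56 points (-4.03 to -1.01). TGTGGTT, a RUNX motif, was found in 3.78% (3.21 to 4.45) of the members and 9.57% (8.69 to 10.5) of the windows, and CAGCTG, an E2A-type E-box, in 0.497% (0.314 to 0.784) and 3.05% (2.56 to 3.63). The octamer ATGCAAAT was found in 1.57% and 2.50%, and the PU.1 motif GAGGAAGT in 1.30% and 2.05%. Among members without a tandem run the shares were close to those of the windows, at 2.36% and 2.04%. The intervals of these differences were -0.91 to 0.71 and -0.72 to 0.78 points. The MYC-type E-box CACGTG was found in 0.579% (0.379 to 0.884) of the members and 0.524% (0.343 to 0.800) of the windows.

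The other motifs were TGANTCA for AP-1 (1.74%), GTAAACA for FOXO factors (0.800%), TCCCNNGGG for EBF1 (0.138%), TATAAA for the TATA box (18.2%) and CCAAT (24.9%), against 5.17%, 3.52%, 0.475%, 31.7% and 36.4% of the windows. Among members without a tandem run, 0 of the 11 motifs had a difference from the windows with an interval above 0 and 6 had one with an interval below 0. Those 6 were the motifs of RUNX, FOXO, AP-1, E2A, interferon regulatory factors and the TATA box. The 1993 members placed on the interspersed repeat were all among the 2162 without a run, so these shares largely describe its copies. The intervals count each copy as a separate window. Of the 182 single-copy members without a run, the 6 motifs were held, in this order, by 7.14%, 3.30%, 1.65%, 2.20%, 12.6% and 25.3%. Only the AP-1 interval (0.562 to 4.73) lay below the share of the windows. CCAAT was found in 36.2% of the members without a run, with an interval of -2.74 to 2.28 points for the difference. A match to such letters is a description and not a bound site. Without a choice of motif, the 6-base word AAAGAA, read on both strands, had the largest difference in percentage points, with 68.5% of the members against 46.7% of the windows. By the same measure ACACAA led among members without a run, with 42.6% against 20.8%.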

How the data were processed

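The authors trimmed paired-end reads, aligned them to mm10 and called narrow peaks with MACS2 once per genotype against its input library. The study's methods name bwa as the aligner, whereas the submitters' processing notes list Bowtie2 2.2.6 and MACS2 2.1.0. The q cutoff and the treatment of duplicates and of reads with several positions are not given in the sources used here. Input libraries entered only through the authors' peak calls. The deposited values per peak are a fold enrichment (a ratio) and the −log10 of a p-value and q-value.

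Pileup and background were solved from the deposited fold and −log10 p under MACS2's formulas (100% of peaks, and 100% of 2000 simulated ones). The smallest −log10 q was 1.03 in MIZ-1WT and 1.01 in MIZ-1DPOZ. Depth is known only as the inferred ratio of 1.34. Sequence came from GRCm38 (mm10) in RefSeq and genes from the GENCODE basic annotation. Coordinates are 1-based. Summits were placed on the interspersed repeat by at least 8 shared sequences of 15 bases. Shares have Wilson, differences Newcombe, medians order-statistic and single pileup ratios exact binomial intervals (scipy 1.17.1). Named regions were those with the largest −log10 q: 10 single-copy and 5 multi-copy members, and 5 single-copy peaks found in 1 list only. Named genes were nearest to or around these, the 10 with the most members, or on 3 lists (genes the study names, its B cell receptor list, B lineage genes). Members, lists and rules were chosen with earlier results of these data known. Alternative cutoffs, windows, promoter, overlap and copy definitions were tried. The long-unit repeats, the telomere-type group and the sections of the repeat were chosen after seeing the values.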

Additional observations from a re-analysis of the deposited data

How the results depend on the processing

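Of 53 values obtained under alternative settings for 11 results, 12 stayed within the 95% interval of the reported value and 41 moved outside it. The median log2 ratio, the only one that could change sign, did not. The MIZ-1WT share with lists of equal length is unchanged because that list was not shortened. No paired analysis was possible because 1 ChIP library stood for each genotype. For the share of non-promoter peaks with AT-rich summits, values in MIZ-1WT and MIZ-1DPOZ were 9.82% and 1.72% with −log10 q limited to 5 or more, 3.79% and 0.567% with GC under 35%, 14.8% and 3.07% in windows of 50 bp to each side, and 7.63% and 1.28% at single-copy summits. With a promoter limit of 500 bp MIZ-1WT gave 13.9%, and with lists of equal length MIZ-1DPOZ gave 1.49%. MIZ-1WT was 4.83 to 9.64 times higher throughout. The overlap of members moved to 25.6% at the stricter q, 14.7% with GC under 35%, 16.9% at single-copy summits, 6.32% with lists of equal length, 8.97% with 50% overlap required in both directions and 8.94% for summits at most 100 bp apart. The other non-promoter MIZ-1WT peaks gave 67% at the stricter q, 41.0% at single-copy summits and 41.2% with lists of equal length. For AT-rich MIZ-1DPOZ peaks the overlap was 25.8% at the stricter q, 35.5% with GC under 35%, 19.8% in the shorter windows, 43.9% with lists of equal length, 17.4% with overlap in both directions and 17.8% for close summits. Single-copy shares of MIZ-1WT and MIZ-1DPOZ were 26.1% and 37.7% at the stricter q, 25.9% and 26.9% with GC under 35%, and 5.63% and 7.85% when all 5 sequences had to be found once. Repeat-masked shares were 94.5% and 90.3% at the stricter q, 82.8% and 81% at single-copy summits, and 99.5% and 98.9% for any masked base. Median pileups were 12 and 13 at the stricter q, and for MIZ-1DPOZ 11 both with GC under 35% and at single-copy summits. The median log2 ratio was -0.39 at the stricter q, -0.31 with GC under 35% and -0.46 by background values. Without chromosome Y and the members with long-unit repeats, an alternative chosen after seeing the data, the AT-rich share was 14%, the overlap 12.3% and the median log2 ratio -0.18. The reason why values moved was not tested. Most members had a pileup under 10, so a site just under the cutoff of the other list counts as not overlapping.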
